A study of Arabidopsis thaliana with 6 samples.

Results

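The ascorbate and glutathione recycling reductases of Arabidopsis thaliana were followed here through hydrogen peroxide treatment. They are 10 loci chosen by name from 3 enzyme families, namely 5 monodehydroascorbate reductases (MDAR1, MDAR2, MDAR3, MDAR4 and MDAR6), 3 dehydroascorbate reductases (DHAR1, DHAR2 and DHAR3) and 2 glutathione reductases (GR1 and GR2). Of these 10 loci, 9 were matched by locus to a row of the deposited table of 21430 probe sets. DHAR1 (AT1G19570) was not analysed here. Wild-type Columbia-0 seedlings had grown for 7 days in half-strength liquid medium with sucrose and were then kept for 24 h with hydrogen peroxide (H2O2) at 10 mM or, as mock, with an equal volume of water. Each group had 3 arrays, and each array was made from a pool of 4 to 5 plants. The values are log2 GCRMA values, in which a difference of 1 is a 2-fold change in probe set signal.

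Hydrogen peroxide is broken down in plants partly by ascorbate peroxidases, which oxidise ascorbate. Monodehydroascorbate reductase returns the first oxidation product, monodehydroascorbate, to ascorbate with NADH or NADPH. Dehydroascorbate reductase returns the fully oxidised form, dehydroascorbate, with electrons from glutathione, and glutathione reductase restores the glutathione with NADPH. The cycle runs in several compartments, some of which share isoforms. In Arabidopsis MDAR2, MDAR3 and DHAR2 are placed in the cytosol, GR1 and MDAR1 in the cytosol and peroxisome, MDAR4 at the peroxisome membrane, DHAR3 in the chloroplast, and MDAR6 and GR2 in both chloroplast and mitochondrion. These placements are background knowledge and were not measured.

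The labels name the tissue as leaf but the source as seedling. Of 6 root marker genes, all were measured, and their mean log2 value was 7.57 to 7.65 over the mock arrays and 6.76 to 6.99 over the H2O2 arrays, with 4 lower (2 with reference gene centring) and 2 not passing the test, where 36.5% of all probe sets tested were lower. The lower mean came mostly from XTH14 and PRP3, both expressed in root hairs, with log2 changes of -1.76 and -2.08. The other root markers changed less, with PYK10 at -0.05, CASP4 at 0.16, CASP1 at -0.30 and MRN1 at -0.30. Of 4 leaf markers only the carbonic anhydrase gene CA1 was measured, at 9.98 to 10.45 over all 6 arrays with overlapping groups. The part of organ composition in the results below was not tested, and in such pooled tissue fewer cells of a type and less RNA per cell cannot be told apart. Separate cultures are not stated for the replicates, and the p-values therefore cover the variation among these pools, which may be technical.

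The question put to the reductases was which of their transcripts differed between H2O2 and mock at 24 h. Of the 9 measured members, all passed the filter on low values, 3 were higher in H2O2 (DHAR2, GR1 and MDAR2), 4 were lower (MDAR6, MDAR3, GR2 and DHAR3) and 2 did not pass (MDAR1 and MDAR4), at an adjusted p under 0.05 in limma. Each of the 3 that rose did so by more than 2-fold, whereas none of the 4 that fell reached 2-fold. Among all 15001 probe sets tested, 60.4% passed, 23.9% were higher and 36.5% were lower, so a call alone is common in these data. Changes of at least 2-fold were rarer, with 7.63% of probe sets higher by that much and 4.14% lower. The median change was -0.07 on the log2 scale over the 9 members and -0.10 over all probe sets tested. With each array centred on 8 reference genes, the median over all probe sets tested moved to 0.00, and their calls from 3584 higher and 5482 lower to 4331 higher and 4135 lower. Before this centring, 2 of the reference genes were themselves lower in limma and 6 did not pass, with a median change of -0.12. The 2 were PP2AA3 (-0.22, adjusted p = 0.028) and RHIP1 (-0.37, adjusted p = 0.0027).

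**Figure D1:**
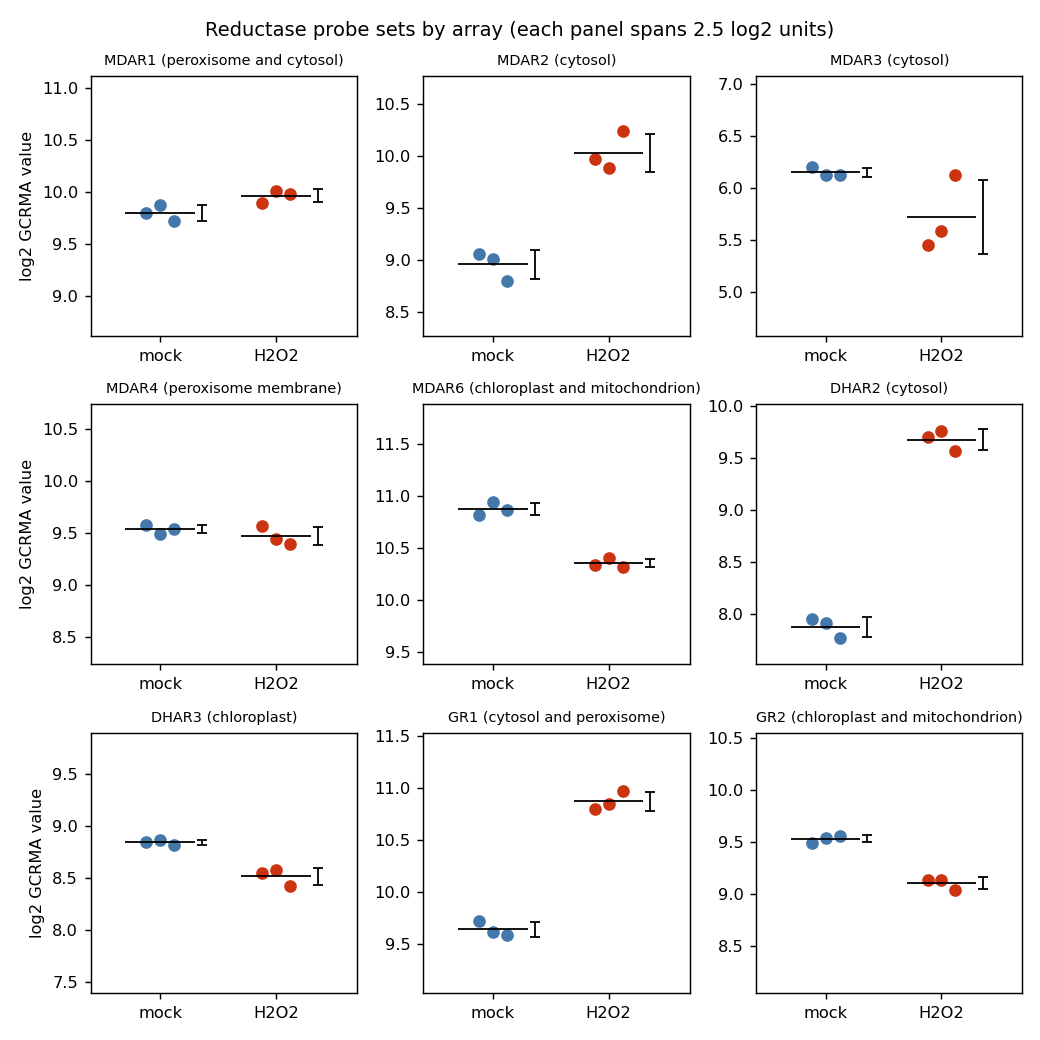
Log2 GCRMA values of the 9 measured reductases, 1 point per array (blue mock, red H2O2), with the group mean as a line and the SD as a bar (n = 3). DHAR2, GR1 and MDAR2 stand more than 1 log2 unit higher in H2O2 by their means, while MDAR6, GR2 and DHAR3 are lower by smaller steps and MDAR3 has 1 H2O2 array at the mock level.

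Among the dehydroascorbate reductases, DHAR2 (AT1G75270), the cytosolic enzyme, had log2 values of 7.95, 7.92 and 7.77 in the mock arrays and 9.71, 9.76 and 9.57 in the H2O2 arrays. Every H2O2 array stood above every mock array, and the gap between the groups was far wider than the spread within either. DHAR2 rose 3.48-fold (log2 change 1.80, SE 0.09, adjusted p = 8.73e-07), and 96.8% of the probe sets tested had a smaller change.

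DHAR3 (AT5G16710), the chloroplast enzyme, went the other way. Its log2 values were 8.84, 8.86 and 8.82 in mock and 8.54, 8.58 and 8.42 in H2O2. The groups did not overlap, and the mock arrays lay very close together. DHAR3 fell by 0.33 on the log2 scale (SE 0.07, adjusted p = 0.0055), a 1.25-fold difference. The pseudogene AT5G36270, which resembles this family, was lower by 0.24 on the log2 scale (adjusted p = 0.023), a call that was lost with reference gene centring, with a trended prior and on leaving out mock replicate 2, mock replicate 3 or H2O2 replicate 1, and the stricter filter left the locus out. The related locus AT1G19550 was not analysed here.

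The glutathione reductases split in the same manner. GR1 (AT3G24170), which serves the cytosol and peroxisome, had log2 values of 9.72, 9.62 and 9.59 in mock and 10.80, 10.84 and 10.98 in H2O2. All H2O2 arrays were higher than all mock arrays. GR1 rose 2.35-fold (log2 change 1.23, SE 0.08, adjusted p = 5.11e-06).

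GR2 (AT3G54660), the form imported into chloroplasts and mitochondria, had log2 values of 9.50, 9.54 and 9.56 in mock and 9.14, 9.14 and 9.04 in H2O2. The groups were again apart, with the H2O2 arrays lower. GR2 fell by 0.43 on the log2 scale (SE 0.07, adjusted p = 0.0011), a 1.34-fold difference.

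The 5 monodehydroascorbate reductases showed all 3 outcomes. MDAR2 (AT5G03630), a cytosolic form, had log2 values of 9.05, 9.01 and 8.80 in mock and 9.97, 9.88 and 10.23 in H2O2. The H2O2 arrays were all higher, though spread more widely than those of DHAR2 or GR1. MDAR2 rose by 1.07 on the log2 scale (SE 0.11, adjusted p = 8.27e-05).

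MDAR6 (AT1G63940) encodes the form found in chloroplasts and mitochondria, and the gene table lists 4 transcripts of it, which a single probe set per locus does not separate. Its log2 values were 10.82, 10.94 and 10.87 in mock and 10.34, 10.40 and 10.32 in H2O2. The groups did not overlap and the H2O2 arrays were lower. MDAR6 fell by 0.52 on the log2 scale (SE 0.07, adjusted p = 0.00039), a 1.44-fold difference.

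MDAR3 (AT3G09940), the other cytosolic form, had log2 values of 6.20, 6.13 and 6.13 in mock and 5.46, 5.58 and 6.12 in H2O2. The third H2O2 array was almost at the level of the lowest mock array, and the SD was 0.35 in H2O2 against 0.04 in mock. MDAR3 was lower by 0.43 on the log2 scale (SE 0.16, adjusted p = 0.042), a 1.35-fold difference. Without H2O2 replicate 3 the change was -0.63 (adjusted p = 0.00073), and the call was lost on leaving out any other array (adjusted p up to 0.14) with reference gene centring (adjusted p = 0.10) and in an unmoderated linear model (adjusted p = 0.15, the highest over 16 alternatives).

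Within this family MDAR1 and MDAR4 changed least. MDAR1 (AT3G52880) had log2 values of 9.80, 9.87 and 9.72 in mock and 9.90, 10.01 and 9.98 in H2O2. The groups were separated by less than their SDs, and the change of 0.16 (95% confidence interval -0.01 to 0.34) did not pass (adjusted p = 0.097). It passed with quantile normalization (0.22, adjusted p = 0.035) and with reference gene centring (0.27, adjusted p = 0.019). Over 16 alternatives its adjusted p ranged from 0.019 to 0.26. MDAR4 (AT3G27820) had log2 values of 9.58, 9.50 and 9.54 in mock and 9.57, 9.45 and 9.40 in H2O2. Here the groups overlapped, and the change was -0.07 (95% confidence interval -0.25 to 0.11, adjusted p = 0.47), with the sign turned under reference gene centring (0.033). Without overlap between groups were 8 of the 9 members, MDAR4 being the exception, against 67.2% of all probe sets tested. The count includes MDAR1 and also MDAR3, whose lowest mock value was 6.126 and highest H2O2 value 6.123. In both the gap was smaller than the SD of either group.

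**Figure D2:**
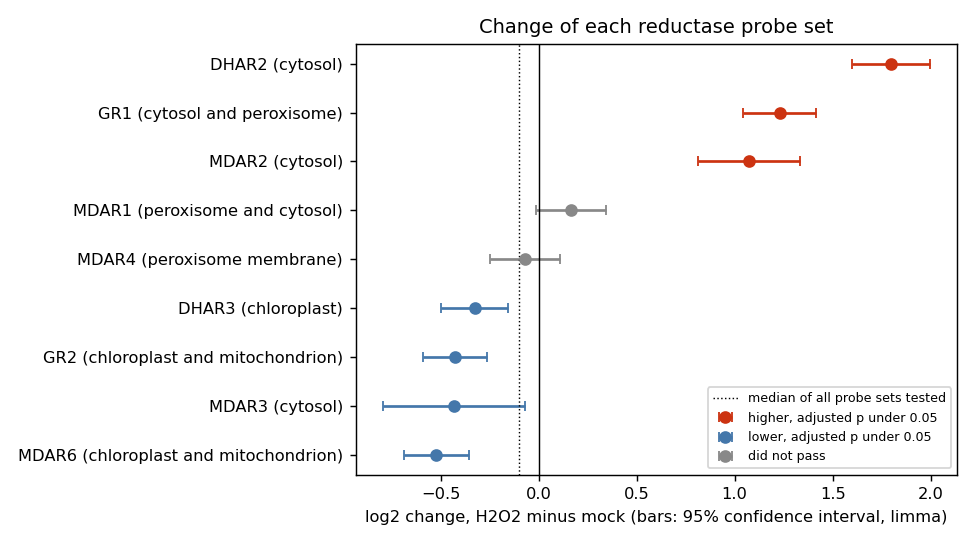
Change of each reductase in log2 value, H2O2 minus mock, with the 95% confidence interval from limma as bars and the median of all 15001 probe sets tested as a dotted line. The intervals of DHAR2, GR1 and MDAR2 lie above 0.8, those of MDAR1 and MDAR4 include 0, and those of DHAR3, GR2, MDAR3 and MDAR6 lie below 0.

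Whether isoforms of 1 family changed unequally was tested on the log2 ratio of the 2 probe sets within each array, for the 12 pairs the 9 members allow. With 3 arrays against 3, taken as unpaired, the exact permutation test, two-sided, cannot give a p below 0.1, so no pair could pass 0.05. The ratio of DHAR2 to DHAR3 was higher in all H2O2 arrays than in all mock arrays, and the changes differed by 2.12 on the log2 scale (SE 0.05, exact permutation p = 0.1, adjusted over 12 pairs 0.13). The changes of GR1 and GR2 differed by 1.66 (SE 0.10) and those of MDAR2 and MDAR6 by 1.60 (SE 0.15), with the same p and again without overlap.

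MDAR2 and MDAR3, both placed in the cytosol alone, also parted. The changes of MDAR2 and MDAR3 differed by 1.51 (SE 0.13, exact permutation p = 0.1), and those of MDAR2 and each of MDAR1 and MDAR4 by 0.91 (SE 0.12) and 1.14 (SE 0.16). In 9 of the 12 pairs the groups did not overlap. Where 1 member was higher and the other lower, each without overlap, their ratio could not overlap. This held for DHAR2 with DHAR3, GR1 with GR2, and each of MDAR1 and MDAR2 with each of MDAR3 and MDAR6. The 67.2% without overlap among all probe sets tested is a share of single probe sets and gives no background for ratios. The pairs with overlap were MDAR4 with MDAR3, MDAR1 with MDAR4 and MDAR3 with MDAR6. Their changes differed by 0.36 (SE 0.25), 0.23 (SE 0.10) and 0.09 (SE 0.23). The first of these was 0.18 without H2O2 replicate 1 and 0.60 without H2O2 replicate 3, and the last was -0.13 without H2O2 replicate 3.

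**Figure D3:**
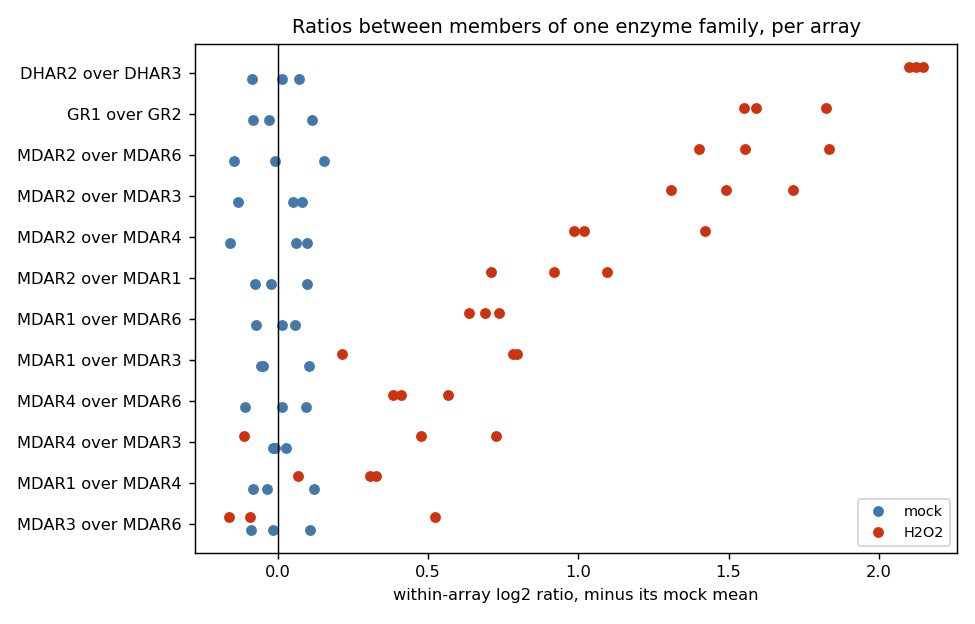
Log2 ratio of 2 members of the same family within each array, minus the mean of that ratio over the mock arrays, for the 12 pairs (blue mock, red H2O2, 3 arrays each). By their means, the H2O2 arrays of DHAR2 over DHAR3, GR1 over GR2 and MDAR2 over MDAR6 lie farthest to the right, and only the pairs MDAR4 over MDAR3, MDAR1 over MDAR4 and MDAR3 over MDAR6 overlap with mock.

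Likeness between profiles was described by the root mean square difference over the 6 arrays after each profile was centred on its own mean. GR2 and DHAR3 were each the nearest member to the other, at 0.06 on the log2 scale, and MDAR6 was nearest to GR2, also at 0.06. GR1 and MDAR2 were likewise each other's nearest member, at 0.11, and DHAR2 was nearest to GR1, at 0.31. Of the other probe sets tested, 1.93% were nearer to GR2 than DHAR3 was, 0.85% were nearer to GR1 than MDAR2 was, and 3.35% were nearer to DHAR2 than GR1 was. For MDAR1, MDAR3 and MDAR4, 25.2%, 12.7% and 26.1% of probe sets were nearer than the nearest member, so their profiles were not set close to another member by this measure. With 2 groups of 3 arrays this measure mostly reflects the size of the step between groups.

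In the whole table the profile nearest to DHAR2 was that of ABCC2 (AT2G34660), a vacuolar transporter gene, at 0.07, followed by the ubiquitin-conjugating enzyme gene UBC11 (AT3G08690) and AT2G16900. Nearest to GR1 were AT3G02400, the ammonium transporter gene AMT2 (AT2G38290) and AT1G61640, at 0.02 to 0.04. Nearest to MDAR2 were the transcription factor gene MYB32 (AT4G34990), AT1G20100 and AT5G12340, at 0.04 to 0.06. The mean log2 value of AT5G12340 was 3.58 in mock, under the filter value of 3.79, and 4.64 in H2O2. It therefore passed the filter only through its H2O2 arrays. AT3G02400 and MYB32 were also low in mock, at 3.82 and 4.12, so a like step does not mean a like signal level.

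The genes next to the 3 members that rose were examined for their own values. GR1 overlaps both of its annotated neighbours, and these did not rise, with PMP (AT3G24160) lower by 0.35 on the log2 scale (adjusted p = 0.0040) and AT3G24180 at -0.07 (adjusted p = 0.47). The gene that follows DHAR2, AT1G75280, rose by 2.75 on the log2 scale (adjusted p = 5.34e-08), more than DHAR2 itself, and the genes do not overlap. Both neighbours of MDAR2 were under the filter on low values and were not tested. None of the 9 members had values identical to those of another locus.

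Other genes of the cycle were described from lists of ascorbate peroxidases, glutathione synthesis, NADPH supply, ascorbate synthesis and ascorbate oxidation. Their background is the share of all probe sets tested, of which 60.4% were called, 23.9% higher and 36.5% lower. Among 8 genes listed as ascorbate peroxidases, 7 were tested, of which 1 was higher, 4 were lower and 2 did not pass. Their changes ranged from -0.56 to 0.64, with a median of -0.19. The lower genes include TL29 (AT4G09010, -0.38) and APX6, and whether each listed protein uses ascorbate was not examined. On leaving out any single array, and with the replicate number as a block, 3 were lower, the lost call being that of APX3 (AT4G35000) in the block fit. The cytosolic APX1 (AT1G07890) had log2 values of 11.68, 11.52 and 11.52 in mock and 12.24, 12.24 and 12.14 in H2O2, a rise by 0.64. The thylakoid form TAPX (AT1G77490) fell by 0.43 and APX6 (AT4G32320) by 0.56. APX2 (AT3G09640), a cytosolic form known to respond to heat and excess light, was under the filter, with log2 values of 2.60, 2.65 and 2.79 in mock and 3.63, 3.84 and 3.77 in H2O2. Its groups did not overlap, and without the filter it was higher (adjusted p = 1.72e-05).

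Glutathione, the electron donor of dehydroascorbate reductase, is made by GSH1 and GSH2. GSH1 (AT4G23100), the rate-limiting enzyme, had log2 values of 10.36, 10.33 and 10.40 in mock and 11.07, 11.07 and 11.20 in H2O2. It rose by 0.75 on the log2 scale (SE 0.07, adjusted p = 6.08e-05), while GSH2 (AT5G27380) had a change of 0.22 and did not pass (adjusted p = 0.11). GSH2 passed with reference gene centring and without H2O2 replicate 1.

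Among 11 genes of NADPH supply, which feeds both glutathione reductase and monodehydroascorbate reductase, 5 were higher, 3 were lower and 3 did not pass, with a median of 0.19. G6PD6 (AT5G40760), a cytosolic glucose-6-phosphate dehydrogenase, rose 1.83-fold, from 7.64, 7.59 and 7.54 in mock to 8.44, 8.43 and 8.52 in H2O2. G6PD1 (AT5G35790), a plastid form, fell by 0.57 and the cytosolic malic enzyme gene NADP-ME2 (AT5G11670) rose by 0.51. G6PD5 (AT3G27300), also cytosolic and singled out after its values were seen, fell by 0.41, so the cytosolic forms did not share a direction.

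Of 7 ascorbate synthesis genes, 2 were higher, 3 were lower and 2 did not pass, with a median of 0.10. VTC2 (AT4G26850), the GDP-L-galactose phosphorylase that controls the pathway, had log2 values of 8.40, 8.18 and 7.90 in mock and 9.76, 9.54 and 9.64 in H2O2, a 2.80-fold rise (SE 0.13 log2, adjusted p = 2.60e-05). Its paralogue VTC5 (AT5G55120) rose 1.73-fold, whereas GLDH (AT3G47930), the mitochondrial enzyme of the last step, fell by 0.53. The 2 ascorbate oxidase genes tested, AT5G21105 and AT5G21100, were lower by 0.21 and 0.22 (adjusted p = 0.043 and 0.046), and with the replicate number as a block only 1 of them passed. Both calls were lost without the filter, with reference gene centring, without any one mock array and without H2O2 replicate 1. The oxidase gene AT4G39830, under the filter, had log2 values of 3.02, 3.26 and 3.08 in mock and 3.54, 3.58 and 3.58 in H2O2. Its groups did not overlap, and without the filter it was higher in limma (adjusted p = 0.0024).

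Among 7 other flavoprotein reductase genes, 5 were measured, 3 of them were lower and 2 did not pass, with a median of -0.24. The share called was close to the 60.4% of all probe sets called in either direction. The 3 calls were all lower, where 36.5% of all probe sets were lower. NTRC (AT2G41680), the chloroplast NADPH-dependent thioredoxin reductase, fell by 0.37, the plastid lipoamide dehydrogenase gene LPD2 (AT4G16155) by 0.28 and the mitochondrial mtLPD1 (AT1G48030) by 0.24. With reference gene centring, and without mock replicate 3, only NTRC passed. NTRA and NTRB, the thioredoxin reductases of cytosol and mitochondrion, were not analysed here.

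**Figure D4:**
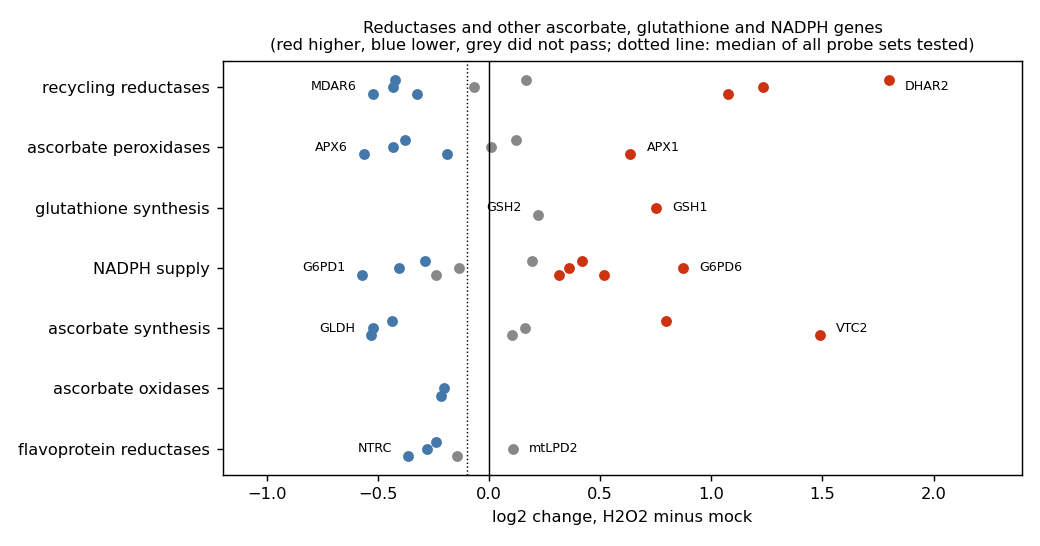
Change in log2 value, H2O2 minus mock, of each tested gene of the reductases and of 6 other lists (red higher, blue lower, grey did not pass). The genes at the ends of each list except the ascorbate oxidases are named, and the median of all probe sets tested is a dotted line. DHAR2 lies farthest to the right at 1.80 and VTC2 follows at 1.49, while every decrease shown is smaller than 0.6.

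**Figure D5:**
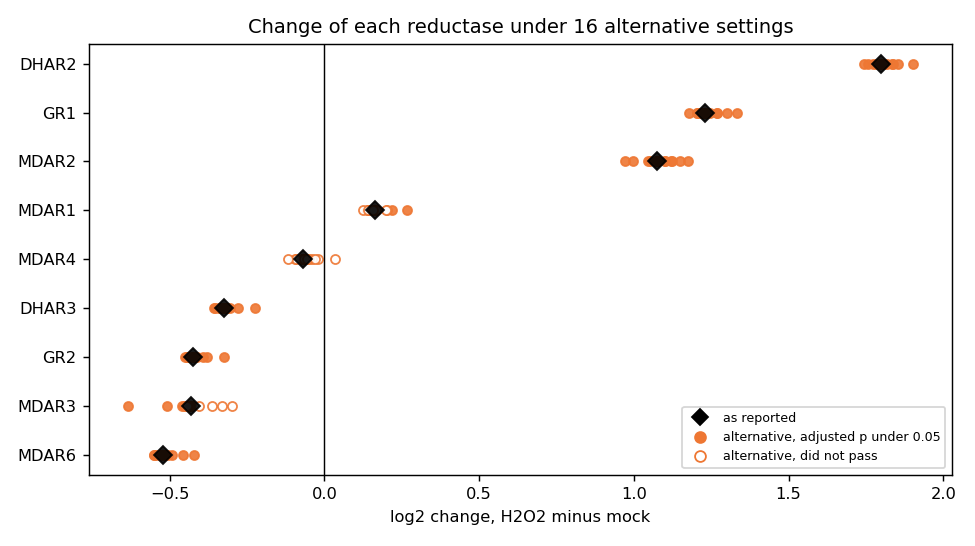
Change of each reductase in log2 value as reported (black diamond) and under 16 alternative settings (orange, filled where the adjusted p is under 0.05). DHAR2, GR1 and MDAR2 stay at 0.97 or more and DHAR3, GR2 and MDAR6 at -0.22 or less, all filled, while MDAR3 and MDAR1 have both filled and open points and MDAR4 only open ones.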

How the data were processed

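The authors deposited log2 values, for which the submitters' processing notes name GCRMA, a method that corrects background by probe sequence and normalizes between arrays. That the scale is log2 was taken from the range of the values. No source used here gives the GCRMA version, the chip or the probe definition. Low signals are compressed by such processing, and overall differences in RNA content are removed. Each of the 21430 probe sets was named by its own locus, and array medians lay at 5.66 to 5.74. The number of arrays limits the precision.

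Probe sets with a mean under the 30th percentile (3.79) were left out, which kept 15001. The test was limma (version 3.58.1, R 4.3.3), two-sided, by lmFit and eBayes, with Benjamini-Hochberg adjustment over all 15001 and a threshold of 0.05. The code was tested on simulated data. Symbols and neighbouring genes were read from RefSeq's table for TAIR10.1. Figures were drawn with matplotlib 3.10.9.

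Replicate numbers are shared between the groups in the labels. Deviations of same-numbered arrays from their group means correlated at 0.19, 0.21 and 0.21, and those of all other pairs below 0. As deviations within a group sum to 0, the values below 0 largely follow from those above it and are no separate support. The numbers may pair the arrays, but the labels do not state this. The main fit and the permutation test took the arrays as unpaired, and a fit with the numbers as a block was an alternative. Other alternatives were the filter, a floor on low values, scalings, priors, array weights and each array left out.

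The members and lists were chosen with earlier results of these data known. All members were named, as were the 3 passing genes of each list that changed most and the 3 profiles nearest to each of the 3 members that changed most. The planned search for promoter motifs was not run, and no sequences were used here.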

Additional observations from a re-analysis of the deposited data

How the results depend on the processing

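Of 9 members, DHAR2, GR1, MDAR2, MDAR6, GR2 and DHAR3 kept direction and call under all 16 alternatives, with DHAR2 at 1.74 to 1.90, GR1 at 1.18 to 1.33, MDAR2 at 0.97 to 1.18, MDAR6 at -0.55 to -0.42, GR2 at -0.45 to -0.32 and DHAR3 at -0.36 to -0.22. The highest adjusted p over these was 0.035, for DHAR3. The fit with the replicate number as a block gave the same log2 changes, for example 1.80 for DHAR2 and -0.43 for MDAR3 (adjusted p = 0.034), and among the members and pathway lists changed no call other than those of APX3 and the ascorbate oxidase gene AT5G21100. MDAR1 passed with quantile normalization (0.22) and reference gene centring (0.27). MDAR3 did not pass with reference gene centring (-0.33) or without variance moderation (-0.43, adjusted p = 0.15), and leaving out single arrays gave -0.63 to -0.30. MDAR4 turned to 0.033 with reference gene centring, without a call. Leaving out single arrays turned the difference between MDAR3 and MDAR6 (-0.13 to 0.22), the turn being without H2O2 replicate 3. The cause was not tested for any of these.

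Without the filter 2 ascorbate peroxidases were higher and 3 lower, and of the ascorbate oxidases 1 was higher and 0 were lower. With reference gene centring 2 glutathione synthesis genes were higher, 0 ascorbate oxidases, 1 flavoprotein reductase and 0 DHAR-like loci were lower. The lower ascorbate oxidases numbered 1 with quantile normalization, without variance moderation and with the block. The DHAR-like locus was lower in 0 cases with the 50th percentile filter, where it was not tested, and with a trended prior. Leaving out single arrays gave 1 to 2 glutathione synthesis genes higher, and 0 to 1 ascorbate oxidases, 1 to 3 flavoprotein reductases (1 without mock replicate 3) and 0 to 1 DHAR-like loci lower.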
